A study of Rattus norvegicus with 27 samples.

Results

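Dedifferentiated rat Schwann cells were compared with undifferentiated ones to see which cell functions still differed after 1 round of differentiation and withdrawal. The comparison uses 6 of the 9 libraries of cell mRNA and of the 27 libraries of the series, 3 per group, chosen by the stage and library code in the names of the columns of the gene table. All were primary rat Schwann cells bought from a vendor and used at low passage. Undifferentiated cells were kept without dbcAMP (dibutyryl cyclic AMP), a form of the second messenger cyclic AMP that enters cells. Dedifferentiated cells had first received 1 mM dbcAMP for 72 h in DMEM with little serum. For another 72 h they were then held without dbcAMP, in a complete medium containing exosome-depleted serum, forskolin, which raises cyclic AMP inside cells, and neuregulin, a Schwann cell mitogen. The labels do not give the composition of the undifferentiated cells' medium, so the effects of past dbcAMP and of the medium cannot be told apart. Differentiated cells, taken at the end of the dbcAMP treatment, formed the remaining 3 libraries and are given only beside the values compared. The labels call the replicates biological, but nothing says that equal numbers in different stages share a culture.

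Schwann cells are the glia of peripheral nerves. In development, cyclic AMP signalling together with neuregulin on the axon turns on the transcription factors Pou3f1 and Egr2, which drive the genes of the myelin sheath and its lipids and turn down immature genes. After nerve injury the same cells can leave the myelinating state, switch on Jun, and become repair cells that secrete trophic factors and matrix. Culture with and without a cyclic AMP analogue is a common model of these transitions, although it lacks axons.

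The 6 libraries held 10058735 to 15283136 estimated counts and 11278 to 11831 detected genes. Levels are given, as single libraries in replicate order or as mean ± SD over 3 libraries, in CPM, counts per 1000000 counts, scaled by TMM (trimmed mean of M-values), and 3 counts, taken as the floor of detection, correspond to 0.196 to 0.297 CPM per library. The first principal component of the 6 libraries held 73% of the variance and separated the stages, and undifferentiated replicate 1 stood apart from the others on the second (12.9%). Summed Schwann cell identity markers reached 9400 to 11000 CPM in undifferentiated and 19800 to 23100 CPM in dedifferentiated libraries, and 6 of 10 tested markers rose, S100b among them. Fibroblast markers summed to 25000 to 30700 and 16000 to 19600 CPM, most of it from Col1a1 and Col1a2, which Schwann cells also express. Of 6 tested, these 2 were called lower and Col3a1 higher, and the untested Lum and Tcf21 had no counts. Endothelial markers summed to 10.9 to 11.3 and 17.8 to 27.7 CPM, with Cdh5 and Cldn5 at 0 and 2 of 3 tested, Tek and Vwf, higher. Macrophage markers summed to 0.849 to 2.55 and 2.14 to 4.15 CPM, with Aif1, Adgre1, C1qa and C1qb at 0 and 1 of 2 tested, Csf1r, higher. Markers of pericytes and smooth muscle summed to 187 to 217 and 357 to 400 CPM (1 of 5 tested, Pdgfrb, higher), those of perineurial cells to 344 to 418 and 661 to 863 CPM (2 of 3, Itgb4 and Tjp1, higher) and those of melanocytes to 14.7 to 17.7 and 22.3 to 40.6 CPM (1 of 2, Mitf, higher). No tested marker of these 5 cell types was called lower. Their part in the results was not tested. In bulk libraries, fewer cells of a type and less RNA per cell cannot be told apart.

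Of 17315 genes in the table, 10372 were tested and 3045 (29.4%) were called at an adjusted p below 0.05 with edgeR's quasi-likelihood test. The called genes were 1667 higher (16.1%) and 1378 lower (13.3%) in dedifferentiated cells, and these shares are the background against which the gene lists below are read. Without regard to the test, the 3 dedifferentiated libraries lay wholly above or below the 3 undifferentiated ones for 44.3% of the genes (23.7% above and 20.7% below). Rises reached further than falls, since 672 genes were called and more than 2-fold higher (6.48%) and 320 were called and more than 2-fold lower (3.09%). The typical called gene changed less, with a median absolute log2 change of 0.68, while the median over all genes tested was 0.018. At the differentiated stage 59.6% of genes were called against undifferentiated cells.

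**Figure D1:**
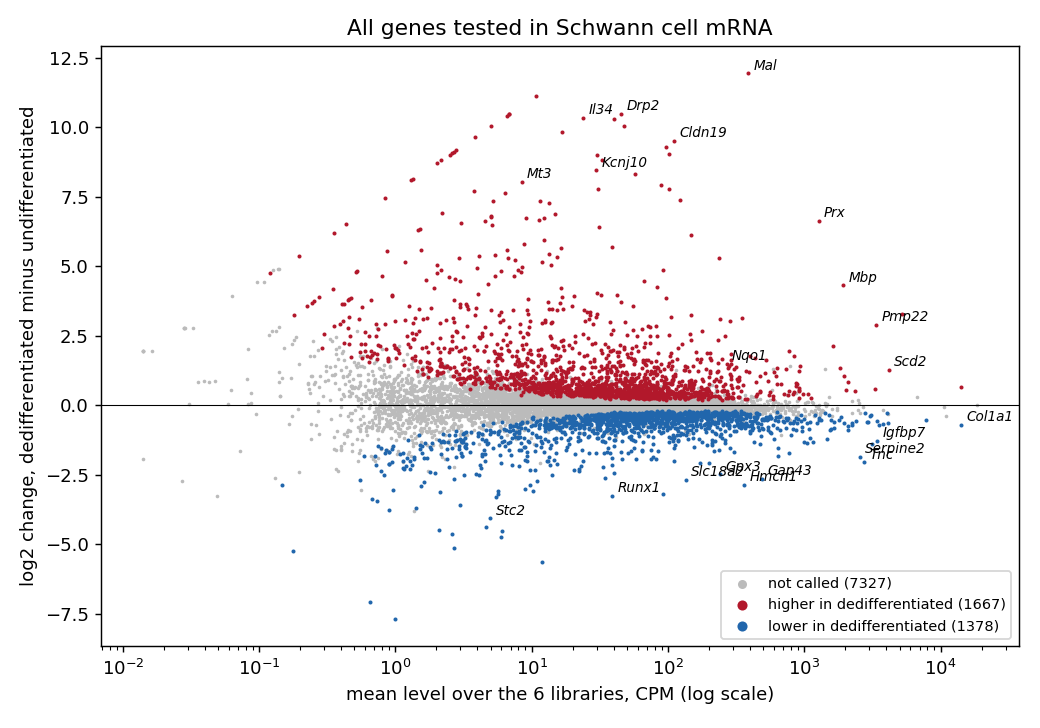
Log2 change in dedifferentiated against undifferentiated cells (vertical) by mean CPM over the 6 libraries (log scale, horizontal), 1 point per gene tested. Genes called higher (1667) and lower (1378) are coloured, and the highest points belong to genes with few or no counts in undifferentiated cells, whose fitted change depends on the prior count.

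The genes with the largest fold rises coded for myelin proteins, channels and secreted factors that were near or under the floor in undifferentiated cells. Mal, a proteolipid of compact myelin, measured 0.34, 0.197 and 0.0653 CPM in the 3 undifferentiated libraries and 1050, 659 and 628 CPM in the dedifferentiated ones (log2 change 11.94, SE 0.444, edgeR adjusted p = 1.31e-07). Like all genes named by fold or by difference in level, Mal was picked among called genes whose groups did not overlap. That separation is thus part of the choice. The differentiated libraries, at 797, 465 and 569 CPM, were close to the dedifferentiated level. Drp2, a dystrophin relative that anchors periaxin at the outer myelin surface, had 2 counts in all undifferentiated libraries together and 145, 60.3 and 64.9 CPM in dedifferentiated ones, a ratio of 1680 (counting interval 464 to 13900). Its differentiated level was lower, at 37.2, 12.8 and 20.1 CPM. Gjb1, the gap junction protein connexin 32 of non-compact myelin, went from 1 count to 43, 32.5 and 24.1 CPM, a ratio of 1220 (counting interval 218 to 48200). Cldn19, a claudin of Schwann cell tight junctions, measured 0.255, 0.0987 and 0.457 CPM in undifferentiated and 308, 182 and 176 CPM in dedifferentiated libraries (log2 change 9.51, SE 0.432, edgeR adjusted p = 4.45e-07), which was below its 791, 502 and 526 CPM in differentiated cells.

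Several of the largest rises lay outside the myelin sheath proper. Il34, a cytokine ligand of the Csf1 receptor, had 1 count in undifferentiated libraries and 60.7, 42.9 and 39.2 CPM in dedifferentiated ones, a ratio of 1760 (counting interval 316 to 69700). Sparcl1, a secreted matricellular glycoprotein, had a ratio of 1490 (counting interval 413 to 12300), with 95.9, 74.6 and 70.6 CPM after withdrawal and 358, 522 and 328 CPM before it. Slc9a3, a sodium-proton exchanger, had a ratio of 1170 (counting interval 400 to 5680). Chp2, a calcium-binding cofactor of that exchanger family, had no count in undifferentiated cells and 17.5, 12 and 11.6 CPM in dedifferentiated ones, at least 54.9-fold higher with the floor of 3 counts per library. The other genes of this kind were Sec14l5 (at least 86.5-fold higher) and Vwf, the clotting protein von Willebrand factor (at least 40.5-fold higher). Vwf is usually an endothelial gene. It read 1.11, 0.828 and 0.78 CPM in differentiated and 14.6, 7.92 and 7.73 CPM in dedifferentiated libraries. Of the 10 endothelial markers, Cdh5 and Cldn5 had no counts in the 6 libraries compared. The sum of the markers was 10.9 to 11.3 CPM in undifferentiated libraries, where Vwf had no count. The cell source of Vwf was not tested. Tek, another endothelial marker, measured 0.679, 2.27 and 0.914 CPM in undifferentiated and 7.29, 3.27 and 5.01 CPM in dedifferentiated libraries (log2 change 2.06, SE 0.446, edgeR adjusted p = 0.00588). The call of Tek was lost with replicates 1 and 2 alone (log2 change 1.87, edgeR adjusted p = 0.104).

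By difference in level rather than fold, the largest rises included those of 28S ribosomal RNA, Pmp22, Mbp, Scd2 and Prx. Prx, the scaffold protein periaxin, measured 18.8, 26 and 30.7 CPM in undifferentiated and 3460, 2170 and 1920 CPM in dedifferentiated libraries (log2 change 6.64, SE 0.309, edgeR adjusted p = 5.08e-07). Scd2, a desaturase of fatty acids, measured 3570, 1760 and 1930 CPM in undifferentiated and 6620, 5410 and 5610 CPM in dedifferentiated libraries (log2 change 1.28, SE 0.238, edgeR adjusted p = 0.00245). Its call was lost with replicates 1 and 2 alone (log2 change 1.18, edgeR adjusted p = 0.0586). The 28S ribosomal RNA entry Rn28s measured 12100, 10900 and 9860 CPM in undifferentiated and 17800, 20500 and 13400 CPM in dedifferentiated libraries (log2 change 0.65, SE 0.194, edgeR adjusted p = 0.0286). Leaving out undifferentiated replicate 2 or 3, or dedifferentiated replicate 1 or 2, ended its call (log2 change 0.63, 0.58, 0.61 and 0.48 in that order, adjusted p = 0.0866, 0.0938, 0.0631 and 0.127).

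The largest falls by fold were in a transcription factor, extracellular proteins and enzymes. Runx1, a transcription factor raised in repair Schwann cells, measured 102, 57.9 and 51.6 CPM in undifferentiated and 7.29, 7.03 and 7.66 CPM in dedifferentiated libraries (log2 change -3.26, SE 0.246, edgeR adjusted p = 6.99e-06). It was not detectably different from its level in differentiated cells, 6.7, 6.02 and 5.46 CPM (log2 change 0.28, edgeR adjusted p = 0.407). Hmcn1, the matrix protein hemicentin 1, measured 972, 461 and 470 CPM in undifferentiated and 152, 55.3 and 57.5 CPM in dedifferentiated libraries (log2 change -2.85, SE 0.409, edgeR adjusted p = 0.000482), and here undifferentiated and dedifferentiated replicate 1 were each the highest of their group. Arhgap11a, a GTPase-activating protein, measured 161, 168 and 164 CPM in undifferentiated and 19.3, 19.7 and 16 CPM in dedifferentiated libraries (log2 change -3.17, SE 0.272, edgeR adjusted p = 1.45e-05). That the groups of all 3 genes were apart is part of the rule that named them.

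The remaining falls of that kind were at lower levels. Spon1, the extracellular protein F-spondin, measured 3.65, 12.5 and 18.8 CPM in undifferentiated and 0, 0.297 and 1.1 CPM in dedifferentiated libraries (log2 change -4.53, SE 0.806, edgeR adjusted p = 0.00188). Aldh1l2, a mitochondrial folate enzyme, fell by 3.30 on the log2 scale, Pcsk1, a prohormone convertase, fell by 2.99 and Chrdl2, a BMP antagonist, fell by 2.86. Changes of -3.08, -3.08, -2.71 and -3.18 were found for Myrip, which links melanosomes to myosin, the amino acid transporter Slc6a17, the phosphatidate phosphatase Lpin3 and Fam71a. Egr1, an immediate early gene, had the most negative change of the genes named by fold (log2 change -5.63, SE 1.7, edgeR adjusted p = 0.0298) but a wide spread among undifferentiated libraries, 13.2, 54.8 and 2.02 CPM against 0.678, 0.0991 and 0.516. Leaving out undifferentiated replicate 2 (log2 change -4.03, edgeR adjusted p = 0.112) or any dedifferentiated library ended its call (log2 change -6.06, -5.27 and -5.77 without replicates 1, 2 and 3, edgeR adjusted p = 0.0778, 0.0886 and 0.0895). Replicates 1 and 2 alone also ended it (log2 change -6.33, edgeR adjusted p = 0.0562).

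The largest falls in level were in matrix and secreted proteins. Tnc, tenascin C, an extracellular glycoprotein of immature and injured nerve, measured 5180, 3970 and 4100 CPM in undifferentiated and 1060, 1060 and 1070 CPM in dedifferentiated libraries (log2 change -2.05, SE 0.21, edgeR adjusted p = 4.81e-05). Serpine2, a protease inhibitor also called protease nexin 1, measured 4020, 4120 and 3880 CPM in undifferentiated and 1170, 1070 and 1090 CPM in dedifferentiated libraries (log2 change -1.86, SE 0.142, edgeR adjusted p = 7.26e-06). In differentiated cells both were lower still, at 93.6 ± 30 and 72.5 ± 16.7 CPM (SD, n = 3), so after withdrawal they stood between the other stages. Igfbp7, a secreted IGF-binding protein, measured 5940, 4540 and 3970 CPM in undifferentiated and 1700, 2240 and 2070 CPM in dedifferentiated libraries (log2 change -1.27, SE 0.172, edgeR adjusted p = 0.000341).

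The promoters of 1 compact myelin gene, 1 non-compact myelin gene and 1 matrix gene named above are shown because Mal, Prx and Serpine2 were among the genes with the largest rises and falls. Each runs from 250 bases before to 50 after the start of the gene, 5′ to 3′ on the strand of the gene, from RefSeq on the build GRCr8: Mal (chr3:135341374-135341673, minus strand), Prx (chr1:91914171-91914470, plus strand) and Serpine2 (chr9:88637153-88637452, minus strand). Capitals mark matches, on either strand, to any of 7 motifs: the cyclic AMP response half-site TGACG, the AP-1 site TGANTCA, the SOX core ACAAAG, the TEAD site GGAATG, the E-box CACGTG, the CCAAT box and the GATA site GATAAG.
Mal: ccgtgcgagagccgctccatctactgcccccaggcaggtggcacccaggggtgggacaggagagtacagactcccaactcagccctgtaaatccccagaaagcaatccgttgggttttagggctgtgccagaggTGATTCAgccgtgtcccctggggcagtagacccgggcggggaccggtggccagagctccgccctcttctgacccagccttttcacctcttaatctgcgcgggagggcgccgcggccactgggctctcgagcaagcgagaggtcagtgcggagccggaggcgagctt
Prx: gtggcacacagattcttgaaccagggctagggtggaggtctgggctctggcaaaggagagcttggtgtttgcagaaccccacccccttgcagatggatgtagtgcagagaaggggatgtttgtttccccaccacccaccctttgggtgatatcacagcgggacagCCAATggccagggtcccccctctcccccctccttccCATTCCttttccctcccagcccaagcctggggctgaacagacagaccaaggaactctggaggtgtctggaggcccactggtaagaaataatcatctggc
Serpine2: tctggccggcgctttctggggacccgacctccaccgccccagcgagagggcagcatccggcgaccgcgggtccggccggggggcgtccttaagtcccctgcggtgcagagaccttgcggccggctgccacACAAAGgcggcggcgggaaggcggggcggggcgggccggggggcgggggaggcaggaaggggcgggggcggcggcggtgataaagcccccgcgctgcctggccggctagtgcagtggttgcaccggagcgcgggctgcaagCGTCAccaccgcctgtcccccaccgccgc

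In these windows Mal held 1 AP-1 match, Prx 1 TEAD match and 1 CCAAT box, and Serpine2 1 SOX core and 1 cyclic AMP half-site. Of the 10372 genes tested, 7956 had a promoter in that table, 8353 promoters in all. The half-site TGACG stood in 33.1% of these, in 29.6% of the promoters of genes called higher and in 30.9% of those called lower. TGANTCA stood in 4.65%, 5.49% and 4.56%, GGAATG in 11.0%, 11.4% and 11.0%, and CCAAT in 37.4%, 40.3% and 33.3%, in the same order. The SOX core ACAAAG stood in 13.0% of all, 11.4% of the higher and 17.7% of the lower genes' promoters. CACGTG stood in 9.29%, 10.5% and 7.06%, and GATAAG in 4.59%, 3.89% and 4.29%. A match is a string of letters and not a measured site.

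Genes of the myelin sheath were far above their undifferentiated level. Of 11 tested compact myelin genes 9 rose (81.8%, against 16.1% of all genes) and 1 fell, with a median log2 change of 3.15. Mbp, which binds the cytoplasmic membrane faces of myelin together, measured 261, 158 and 132 CPM in undifferentiated and 5400, 2960 and 2640 CPM in dedifferentiated libraries (log2 change 4.32, SE 0.417, edgeR adjusted p = 3.16e-05). Pmp22, a myelin membrane protein dosage-sensitive in inherited neuropathy, measured 487, 967 and 933 CPM in undifferentiated and 7250, 5390 and 5090 CPM in dedifferentiated libraries (log2 change 2.89, SE 0.276, edgeR adjusted p = 2.92e-05). Replicate 1 had the highest dedifferentiated value of each gene.

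Among the other compact myelin genes that rose were the tetraspanin Cd9 (log2 change 3.15), the plasmolipin gene Pllp (7.78), the fatty acid-binding protein gene Pmp2 (5.29) and Mpzl1 (1.56). They did not share 1 course over the stages. Cd9 measured 70.3 ± 7.75, 215 ± 12.3 and 623 ± 76.4 CPM in undifferentiated, differentiated and dedifferentiated cells (SD, n = 3), highest after withdrawal. Pmp2 measured 11.7 ± 6.5, 1490 ± 446 and 463 ± 61.6 CPM, and Pllp 0.942 ± 0.587, 329 ± 32.9 and 204 ± 67.2 CPM, both highest in differentiated cells. The member that fell was Tspan2, a tetraspanin (log2 change -1.04, SE 0.23, edgeR adjusted p = 0.00647). Its call was lost with replicates 1 and 2 alone (log2 change -1.06, edgeR adjusted p = 0.0922). With those 2 replicates per stage, which share 1 sequencing project, 9 and 0 members were called higher and lower, and in this order such pairs of counts are given below.

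In non-compact myelin and the contact between axon and glia, 20 of 27 tested members rose (74.1%), 1 fell and the median log2 change was 1.62. Replicates 1 and 2 alone gave 15 and 0. Nfasc, which codes for the neurofascins that join glia to axons beside the node of Ranvier, measured 0.255, 0.197 and 0 CPM in undifferentiated, 3.39, 2.11 and 1.74 in differentiated and 111, 45.7 and 40.1 CPM in dedifferentiated libraries (log2 change 8.83, SE 0.679, edgeR adjusted p = 7.58e-06). Ncmap, a membrane protein of non-compact myelin, measured 0, 0.592 and 0 CPM in undifferentiated, 0.737, 0.452 and 1.08 CPM in differentiated and 36.3, 24.8 and 18.9 CPM in dedifferentiated libraries (log2 change 7.26, SE 0.633, edgeR adjusted p = 1.62e-05). Both had most of their rise after withdrawal and not under dbcAMP (against differentiated cells, log2 change 4.78, edgeR adjusted p = 1.47e-05 for Nfasc and log2 change 5.09, edgeR adjusted p = 1.78e-05 for Ncmap).

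Other members rose as well. Cdh1, the E-cadherin of junctions between layers of one Schwann cell, measured 0.17, 0.79 and 0.196 CPM in undifferentiated, 130, 102 and 113 in differentiated and 167, 90.3 and 88.5 in dedifferentiated libraries (log2 change 8.32, SE 0.428, edgeR adjusted p = 7.99e-07). The Cdh1 values after withdrawal overlapped those under dbcAMP (log2 change 0.00, edgeR adjusted p = 0.998). Summed epithelial markers, Cdh1 included, were 1.1 to 1.58 CPM in undifferentiated and 89.6 to 167 CPM in dedifferentiated libraries, with Krt19 at 0. Cdh1 itself made up nearly all of the dedifferentiated sum, so that rise is no observation apart from its own. Of 2 epithelial markers tested, only Cdh1 was called. Dusp15, a phosphatase of myelinating glia, rose by 9.29 on the log2 scale (SE 0.454) and Bcas1, a protein of myelinating glia, by 9.03 (SE 0.281). Their undifferentiated means, 0.299 and 0.391 CPM, were near the floor, so the size of these folds rests on few counts. Their dedifferentiated means were 192 and 202 CPM. Mag, the myelin-associated glycoprotein of the inner membrane, rose by 6.13 on the log2 scale, and Ndrg1, mutated in a hereditary neuropathy, by 1.95. The member that fell was Sptbn1, a spectrin of the membrane skeleton (log2 change -0.60, SE 0.127, edgeR adjusted p = 0.00515). It was again not called with replicates 1 and 2 alone (log2 change -0.49, edgeR adjusted p = 0.124).

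**Figure D2:**
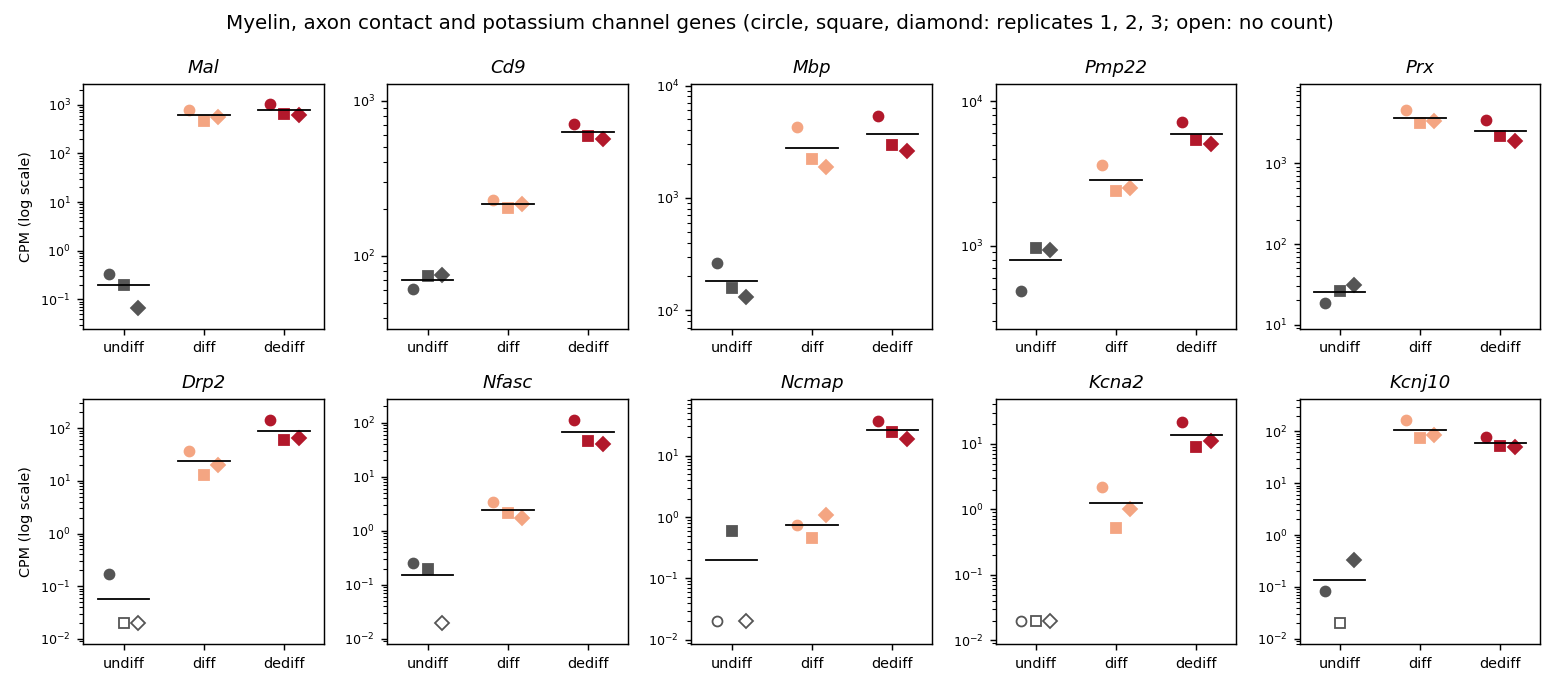
CPM (log scale) of 10 myelin, axon contact and potassium channel genes in undifferentiated, differentiated and dedifferentiated libraries, 1 symbol per library, with the mean as a line and open symbols, drawn at an arbitrary low value, for no count. In each panel the dedifferentiated libraries lie above the undifferentiated ones. Cd9, Nfasc, Ncmap and Kcna2 are highest after withdrawal, and Kcnj10 in differentiated cells.

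Transcription factors of the myelin programme went both ways. Of 16 tested, 6 rose (37.5%, against 16.1% of all genes) and 4 fell (25%, against 13.3%). The median log2 change was 0.43, and with replicates 1 and 2 alone the counts were 3 and 2. Egr2, the central activator of myelin genes, measured 1.44, 14.4 and 2.61 CPM in undifferentiated, 647, 781 and 645 in differentiated and 176, 107 and 101 CPM in dedifferentiated libraries (log2 change 4.46, SE 0.573, edgeR adjusted p = 0.00023). Pou3f1, which precedes Egr2 in development, measured 3.57, 8.29 and 6.66 CPM in undifferentiated, 1710, 1500 and 1290 CPM in differentiated and 214, 163 and 156 CPM in dedifferentiated libraries (log2 change 4.85, SE 0.254, edgeR adjusted p = 8.52e-07). For both, all dedifferentiated libraries lay between the other stages. Pou3f2, a relative that can act for Pou3f1, was instead highest after withdrawal, at 18.5 ± 4.14, 90.7 ± 19.2 and 130 ± 20.8 CPM (log2 change 2.81 against undifferentiated cells). Nfatc4 and Zeb2, factors needed for myelination, fell by 0.88 and 0.62 on the log2 scale. Sox10, the lineage factor of Schwann cells, measured 1380 ± 163 CPM in undifferentiated and 1450 ± 108 CPM in dedifferentiated cells (edgeR adjusted p = 0.668).

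Genes for myelin lipids were among those that rose. Of 27 tested genes of sphingolipid and galactolipid synthesis, 12 rose (44.4%) and 1 fell, with a median log2 change of 0.26 (7 and 0 with replicates 1 and 2 alone, and 2 lower calls without dedifferentiated replicate 1). Ugt8, which makes the main galactolipid of myelin, measured 58.6, 89.7 and 80 CPM in undifferentiated and 498, 330 and 335 CPM in dedifferentiated libraries (log2 change 2.35, SE 0.217, edgeR adjusted p = 2.33e-05). Fa2h, which hydroxylates the fatty acids of those lipids, measured 0.17, 1.97 and 2.09 CPM in undifferentiated and 98.6, 66.3 and 62.2 CPM in dedifferentiated libraries (log2 change 5.71, SE 0.464, edgeR adjusted p = 1.09e-05). The groups did not overlap for either gene. Gal3st1, which turns the galactolipid into sulfatide, rose by 1.57 on the log2 scale, the ceramide kinase Cerk by 1.63, the sphingomyelin synthase Sgms1 by 1.25, the desaturase Degs1 by 0.80 and the acid ceramidase Asah1 by 0.86.

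In fatty acid synthesis and desaturation, 13 of 25 tested genes rose (52%) and 5 fell, with a median log2 change of 0.37 (9 and 2 with replicates 1 and 2 alone). Dgat2, which makes triacylglycerol, measured 1.36, 1.88 and 2.22 CPM in undifferentiated and 29, 23.8 and 21.1 CPM in dedifferentiated libraries (log2 change 3.73, SE 0.196, edgeR adjusted p = 8.52e-07). Elovl7, an elongase of long fatty acids, had no count in undifferentiated cells and 7.2, 3.86 and 4.57 CPM after withdrawal, at least 20.9-fold higher. Log2 rises of 1.72 and 1.19 were found for the malic enzyme Me1, a source of NADPH, and for Acaca, the first committed enzyme of fatty acid synthesis, and rises of 1.57, 1.43 and 1.15 for Lpin1, Acsl1 and Gpam, which act in glycerolipid assembly. Of the desaturases of polyunsaturated fatty acids, Fads2 fell by 0.69 on the log2 scale and Fads3 fell by 0.63.

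Few sterol genes changed. Of 28 tested, 4 rose (14.3%, under the 16.1% of all genes) and 1 fell, and the median log2 change was 0.19. The number that rose was 9 without undifferentiated replicate 1 and 3 and 0 rose and fell with replicates 1 and 2 alone. Lss, the lanosterol synthase, rose by 1.02 on the log2 scale and the cholesterol exporter Abca1 by 0.94.

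Ion channels moved in both directions, with more rises. Of 28 tested potassium channel genes 13 rose (46.4%) and 4 fell. The median log2 change was 0.87, or 0.65 with the genes that had no count in 1 group set at their bound. Kcna1 and Kcna2, subunits of delayed rectifiers best known from axon membrane under myelin, had no count in undifferentiated cells. Kcna2 measured 2.21, 0.527 and 1.02 CPM in differentiated and 21.4, 8.92 and 11 CPM in dedifferentiated libraries, at least 55.2-fold above undifferentiated cells, and Kcna1 at least 52.5-fold. Kcnj10, the inward rectifier Kir4.1 of glia, measured 0.0849, 0 and 0.326 CPM in undifferentiated and 76.9, 51.4 and 49.7 CPM in dedifferentiated libraries (log2 change 8.45, SE 0.6, edgeR adjusted p = 4.53e-06), with 169, 74.5 and 84.6 CPM in differentiated cells. Kcnj11 was at least 17.4-fold higher, and the 2-pore channel genes Kcnk5 and Kcnk1 rose by 2.93 and 3.78 on the log2 scale. With replicates 1 and 2 alone 7 and 0 potassium channel genes rose and fell. The count of falls was 2 without undifferentiated replicate 1 or 2 and 1 without dedifferentiated replicate 3.

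Of 51 tested sodium, calcium, chloride, TRP and purinergic channel and receptor genes, 16 rose (31.4%) and 8 fell, with a median log2 change of 0.19 (9 and 4 with replicates 1 and 2 alone). P2ry2, a receptor for extracellular ATP and UTP, measured 3.31, 2.76 and 3.13 CPM in undifferentiated and 46.9, 34.5 and 27.9 CPM in dedifferentiated libraries (log2 change 3.56, SE 0.247, edgeR adjusted p = 3.87e-06). P2rx7, an ATP-gated channel, rose by 1.53 on the log2 scale, the T-type calcium channel gene Cacna1h by 2.57 and the chloride channel gene Clcn2 by 1.88. Cacna2d1, an auxiliary calcium channel subunit, fell by 1.16 on the log2 scale and Trpm4 by 1.03.

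Among transporters and receptors for neurotransmitters, 12 of 37 tested genes rose (32.4%, against 16.1% of all genes) and 8 fell (21.6%, against 13.3%). Replicates 1 and 2 alone gave 6 and 5, and leaving out dedifferentiated replicate 3 gave 5 falls. The median log2 change was 0.28. Slc6a11, a GABA transporter gene, rose by 4.56 on the log2 scale. Slc18a2, the vesicular monoamine transporter gene, moved the other way, with 202, 249 and 249 CPM in undifferentiated and 39.8, 33 and 36.7 CPM in dedifferentiated libraries (log2 change -2.67, SE 0.135, edgeR adjusted p = 7.99e-07). The glutamate transporter gene Slc1a3 fell by 2.31 on the log2 scale and the glutamate receptor gene Gria1 fell by 2.52.

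Genes of the antioxidant response, many of them targets of the transcription factor NRF2 (gene Nfe2l2), rose more often than they fell. Of 34 tested, 18 rose (52.9%) and 4 fell, with a median log2 change of 0.49, and with replicates 1 and 2 alone 11 and 2 did. Nqo1, a quinone reductase, measured 109, 152 and 163 CPM in undifferentiated, 142, 84 and 130 in differentiated and 209, 502 and 483 CPM in dedifferentiated libraries (log2 change 1.5, SE 0.309, edgeR adjusted p = 0.00453). Its differentiated values overlapped the undifferentiated ones, and all dedifferentiated values were higher. Its call was lost with replicates 1 and 2 alone (log2 change 1.45, edgeR adjusted p = 0.0679). Hmox1, the inducible heme oxygenase, measured 6.54, 8.39 and 7.05 CPM in undifferentiated, 15.4, 8.89 and 10.3 CPM in differentiated and 20.8, 24.2 and 30 CPM in dedifferentiated libraries (log2 change 1.78, SE 0.223, edgeR adjusted p = 0.000198). Gsta1, a glutathione transferase, measured 1.27, 8.79 and 8.68 CPM in undifferentiated, 15.3, 6.85 and 15.5 CPM in differentiated and 34.7, 105 and 111 CPM in dedifferentiated libraries (log2 change 3.73, SE 0.595, edgeR adjusted p = 0.000934). Dedifferentiated replicate 1 had the lowest value of its group for Nqo1, Hmox1 and Gsta1. Reads of close relatives in the Gsta family may be shared between entries.

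Mt3, a metallothionein that binds zinc and copper, had 2 counts in all undifferentiated libraries and 23.5, 13.1 and 13.8 CPM in dedifferentiated ones, a ratio of 313 (counting interval 86.2 to 2590), with 0.442, 0 and 0.12 CPM in differentiated cells. Nfe2l2 itself rose by 1.11 on the log2 scale and Keap1, its inhibitor, by 0.62. In glutathione synthesis Gclc rose by 0.98 on the log2 scale and Gss by 1.00, whereas Slc7a11, which brings in cystine for it, went from 53.8, 63 and 60.6 CPM to 13.7, 7.03 and 8.03 CPM (log2 change -2.62, SE 0.346, edgeR adjusted p = 0.000279). Gpx3, the secreted glutathione peroxidase, also fell, from 568, 350 and 300 to 105, 58.1 and 56.1 CPM (log2 change -2.48, SE 0.288, edgeR adjusted p = 0.000118). Both of these were lower still in differentiated cells, at 2.21 ± 1.62 and 2.09 ± 0.691 CPM (SD, n = 3).

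Glycolysis and lactate genes rose in 10 of 33 tested cases (30.3%) and fell in 4 (7 and 1 with replicates 1 and 2 alone). The count of falls was 1 without undifferentiated replicate 1 and 2 without undifferentiated replicate 3 or dedifferentiated replicate 2. The median log2 change was only 0.11. Pfkm, a form of the glycolytic control enzyme phosphofructokinase, measured 16, 15.6 and 15.2 CPM in undifferentiated and 73.7, 54.4 and 51.2 CPM in dedifferentiated libraries (log2 change 1.94, SE 0.133, edgeR adjusted p = 3.7e-06). Ldhb, a lactate dehydrogenase, rose by 1.06 on the log2 scale, the lactate transporter gene Slc16a1 by 0.79, and Tkt and Taldo1 of the pentose phosphate pathway by 1.03 and 1.15. In oxidative phosphorylation the counts were 5 of 75 tested genes higher (6.67%, below the background) and 1 lower (0 and 1 with replicates 1 and 2 alone). Its count of rises was 8 without dedifferentiated replicate 1, 1 without undifferentiated replicate 2 or dedifferentiated replicate 2 and 2 without any other single library.

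**Figure D3:**
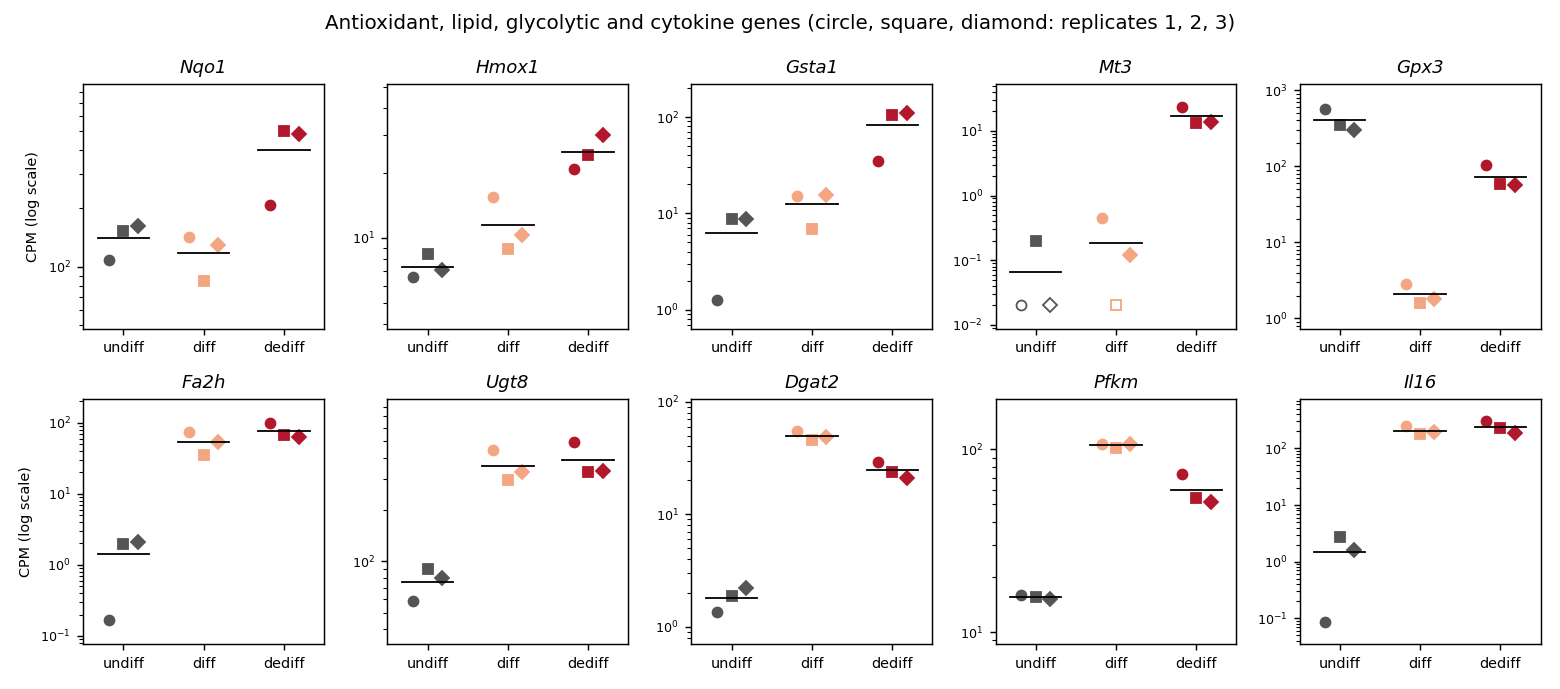
CPM (log scale) of 10 antioxidant, lipid, glycolytic and cytokine genes in undifferentiated, differentiated and dedifferentiated libraries, 1 symbol per library and the mean as a line, with open symbols, drawn at an arbitrary low value, for no count. Dedifferentiated libraries lie above undifferentiated ones for each gene except Gpx3, which is lower.

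In the lysosome 16 of 51 tested genes rose (31.4%) and 6 fell, with a median log2 change of 0.15 (5 and 2 with replicates 1 and 2 alone, and 3 falls without dedifferentiated replicate 3). The changes were small: Tpp1, a lysosomal peptidase, rose by 0.71 on the log2 scale, Cln3, a lysosomal membrane protein, by 0.94 and Gpnmb, a glycoprotein of lysosomes and melanosomes, by 1.19. Mitf, of a transcription factor family that controls lysosomal genes, rose by 0.86 on the log2 scale, and the acid lipase gene Lipa fell by 0.76, from 424 ± 58.3 to 250 ± 23.1 CPM (SD, n = 3).

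Cytokine and chemokine genes were few but included wide rises. Of 32 tested, 9 rose (28.1%, against 16.1% of all genes) and 5 fell (15.6%, against 13.3%). Replicates 1 and 2 alone gave 4 and 1. Il16, a lymphocyte chemoattractant, measured 0.0849, 2.67 and 1.63 CPM in undifferentiated and 311, 226 and 190 CPM in dedifferentiated libraries (log2 change 7.40, SE 0.433, edgeR adjusted p = 1.47e-06). Cxcl14, a chemokine, measured 10.1, 7.21 and 7.51 CPM in undifferentiated and 227, 126 and 124 CPM in dedifferentiated libraries (log2 change 4.27, SE 0.396, edgeR adjusted p = 2.39e-05), and Cxcr4, the receptor of Cxcl12, 1.27, 0 and 0.457 CPM in undifferentiated and 29.1, 24.9 and 24.1 CPM in dedifferentiated libraries (log2 change 5.44, SE 0.501, edgeR adjusted p = 2.31e-05). The groups were apart for all of them. Cd59, which protects cells from complement, rose by 1.89 on the log2 scale.

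More genes that mark immature and non-myelinating Schwann cells fell than rose. Of 27 tested, 12 fell (44.4%, against 13.3% of all genes) and 4 rose, with a median log2 change of -0.32. Replicates 1 and 2 alone gave 2 and 7 rises and falls, and the count of rises was 2 without undifferentiated replicate 2, dedifferentiated replicate 2 or dedifferentiated replicate 3. Gap43, a growth-cone protein of immature and repair cells, measured 784, 889 and 857 CPM in undifferentiated, 0.442, 0.377 and 0 in differentiated and 164, 126 and 118 CPM in dedifferentiated libraries (log2 change -2.63, SE 0.19, edgeR adjusted p = 5.12e-06). Cadm1, an adhesion molecule, fell by 0.93 on the log2 scale, and Gfra1, the GDNF receptor subunit, by 0.61. Ngfr, the low-affinity neurotrophin receptor, measured 4550 ± 913 CPM in undifferentiated and 3690 ± 105 CPM in dedifferentiated cells (edgeR adjusted p = 0.129). The members that rose included Dhh, the hedgehog ligand by which Schwann cells organise the nerve sheath (log2 change 1.23), and the calcium-binding protein gene S100b (1.31), both of which are also expressed by myelinating cells.

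Transcription factors of the repair and immature state fell in 7 of 26 tested cases (26.9%) and rose in 3, with a median log2 change of -0.33 (1 and 2 with replicates 1 and 2 alone). The count of falls was 4 without undifferentiated replicate 2 or dedifferentiated replicate 1 and 3 without dedifferentiated replicate 3. Sox4, an early lineage factor (log2 change -0.89), was among the members that fell, as was Snai2 (-1.31). Id2, an inhibitor of helix-loop-helix factors, rose by 2.43 on the log2 scale, from 8.2 ± 6.07 to 43.9 ± 8.02 CPM (SD, n = 3). Jun, the central repair factor, measured 2920, 1990 and 2420 CPM in undifferentiated and 1860, 2180 and 2070 CPM in dedifferentiated libraries (edgeR adjusted p = 0.228), and Sox2, an immature-state factor, measured 692, 367 and 340 CPM in undifferentiated and 377, 407 and 367 CPM in dedifferentiated libraries (0.459).

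Of 24 tested trophic factors and cytokines of repair cells, 7 fell (29.2%) and 2 rose, with a median log2 change of -0.33. Bdnf, a neurotrophin, measured 101, 69.3 and 63.8 CPM in undifferentiated and 38.7, 28.8 and 30.9 CPM in dedifferentiated libraries (log2 change -1.24, SE 0.181, edgeR adjusted p = 0.000526), and Fgf5 232, 179 and 144 CPM in undifferentiated and 80.9, 91.6 and 91.5 CPM in dedifferentiated libraries (log2 change -1.07, SE 0.255, edgeR adjusted p = 0.0098). Both had been lower in differentiated cells, at 2.62 ± 0.492 and 0.598 ± 0.603 CPM (SD, n = 3). With DESeq2's Wald test Fgf5 was not called (adjusted p = 0.274). Shh, a hedgehog ligand induced after injury, rose by 1.01 on the log2 scale. The count of falls was 4 without dedifferentiated replicate 2 or 3 and that of rises 1 without undifferentiated replicate 3 or dedifferentiated replicate 2. With replicates 1 and 2 alone the counts were 1 and 3.

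More extracellular matrix genes fell than rose. Of 19 tested collagen genes 8 fell (42.1%) and 4 rose, a median log2 change of -0.38, and replicates 1 and 2 alone gave 4 and 6 rises and falls. Col1a1, a chain of fibrillar collagen I, measured 20700, 16100 and 16000 CPM in undifferentiated and 12600, 9780 and 9820 CPM in dedifferentiated libraries (log2 change -0.71, SE 0.172, edgeR adjusted p = 0.0101), and Col1a2, the other chain, 9910, 8870 and 8880 CPM in undifferentiated and 6700, 6100 and 6400 CPM in dedifferentiated libraries (log2 change -0.53, SE 0.107, edgeR adjusted p = 0.00419). With replicates 1 and 2 alone neither was called. Col5a1, a chain of collagen V, which nucleates collagen fibrils, measured 5210, 4270 and 4220 CPM in undifferentiated and 2080, 1570 and 1600 CPM in dedifferentiated libraries (log2 change -1.38, SE 0.153, edgeR adjusted p = 8.12e-05). Col7a1 of anchoring fibrils fell by 1.82 on the log2 scale, Col27a1 by 1.18, and Col4a1 and Col18a1 of basement membranes by 0.72 and 0.87. The collagens that rose were Col6a2 (log2 change 2.23), Col14a1 (1.70), Col15a1 (1.41) and Col3a1 (1.42). The summed fibroblast markers given above include Col1a1, Col1a2 and Col3a1. Col1a1 and Col1a2, with means of 17600 and 9220 CPM in undifferentiated cells, make up most of that sum. Its fall is therefore no observation apart from theirs. The part of fibroblasts in these falls was not tested.

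Among laminins and other basement membrane and matrix genes, 13 of 33 tested fell (39.4%) and 3 rose, with a median log2 change of -0.37 (1 and 8 with replicates 1 and 2 alone). The count of rises was 1 without undifferentiated replicate 1, undifferentiated replicate 3 or dedifferentiated replicate 1. Lamb2, a laminin chain of the Schwann cell basal lamina, measured 1260, 976 and 946 CPM in undifferentiated and 663, 572 and 524 CPM in dedifferentiated libraries (log2 change -0.85, SE 0.144, edgeR adjusted p = 0.00132). Loxl2, which crosslinks collagen, fell by 2.01 on the log2 scale, the collagen hydroxylase P4ha2 by 0.98 and agrin, Agrn, by 0.82. Nid2, which links laminin to collagen IV, rose by 0.86 on the log2 scale. Ncan, the proteoglycan neurocan, had no count in dedifferentiated cells and 1.97 ± 1.23 CPM in undifferentiated ones, at least 7.64-fold lower.

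Matrix proteases and their inhibitors went both ways, 8 of 34 up (23.5%) and 10 down (29.4%), with 6 and 7 from replicates 1 and 2 alone. Of the plasminogen system Plat, tissue plasminogen activator, fell by 0.74 on the log2 scale and Plaur, the urokinase receptor, by 1.52, beside Serpine2 above. Mmp2, a gelatinase, fell by 1.05 on the log2 scale. Timp3 and Timp2, inhibitors of metalloproteinases, rose by 1.67 and 0.76 on the log2 scale. Adamts3, which processes procollagen, measured 0.0849, 0.0987 and 0.261 CPM in undifferentiated and 22.3, 16.9 and 14.7 CPM in dedifferentiated libraries (log2 change 6.73, SE 0.454, edgeR adjusted p = 3.53e-06).

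IGF genes and their binding proteins had no called rise among 14 tested (edgeR, 1 at an unadjusted p under 0.05 and 0 with DESeq2's Wald test) and 6 falls (42.9%), a median log2 change of -0.39, and 0 and 6 with replicates 1 and 2 alone. Igfbp5, a binding protein, measured 367, 288 and 320 CPM in undifferentiated and 93, 67.7 and 68 CPM in dedifferentiated libraries (log2 change -2.09, SE 0.16, edgeR adjusted p = 7.26e-06). Pappa, the protease that frees IGF from its binding proteins, measured 397, 338 and 388 CPM in undifferentiated and 137, 147 and 157 CPM in dedifferentiated libraries (log2 change -1.35, SE 0.0948, edgeR adjusted p = 4.28e-06), and Stc2, an inhibitor of that protease, fell by 4.06 on the log2 scale. The insulin receptor gene Insr fell by 0.98 on the log2 scale and Grb10, an adaptor that restrains insulin and IGF receptors, by 1.62.

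In the TGF-β and BMP pathway 15 of 45 tested genes fell (33.3%) and 3 rose, with a median log2 change of -0.24 (2 and 9 with replicates 1 and 2 alone). Among ligands, Tgfb2 fell by 1.68 on the log2 scale, Gdf11 by 1.28 and Bmp3 by 2.01. Ltbp1, which holds latent TGF-β in the matrix, fell by 1.13 on the log2 scale, and Smad4, the shared signal transducer, by 0.68. Tgfbi, a matrix protein named for its induction by TGF-β, measured 1230, 1180 and 1110 CPM in undifferentiated and 346, 365 and 362 CPM in dedifferentiated libraries (log2 change -1.72, SE 0.203, edgeR adjusted p = 0.000134). The co-receptor gene Tgfbr3 rose by 1.19 on the log2 scale.

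Of 54 tested genes of actin, focal adhesions and contraction, 22 fell (40.7%) and 6 rose, with a median log2 change of -0.26 (3 and 10 with replicates 1 and 2 alone). Zyx, zyxin, a sensor of tension at focal adhesions, measured 679, 733 and 641 CPM in undifferentiated, 104, 117 and 125 in differentiated and 271, 253 and 254 CPM in dedifferentiated libraries (log2 change -1.40, SE 0.0917, edgeR adjusted p = 3.03e-06). The actin crosslinkers Flnc and Flna fell by 1.20 and 0.59 on the log2 scale, Lims2, which joins integrins to actin, by 1.63, Lmo7 by 1.92 and the vinculin-binding protein gene Sorbs2 by 1.23. Sorbs3, a relative of Sorbs2, rose by 1.24 on the log2 scale. In the YAP and Hippo pathway, which answers to tension, 6 of 19 tested genes fell (31.6%, against 13.3% of all genes) and 2 rose (10.5%, against 16.1%). Replicates 1 and 2 alone gave 1 rise and 3 falls. Yap1 fell by 0.77 on the log2 scale and Tead2 by 1.05.

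**Figure D4:**
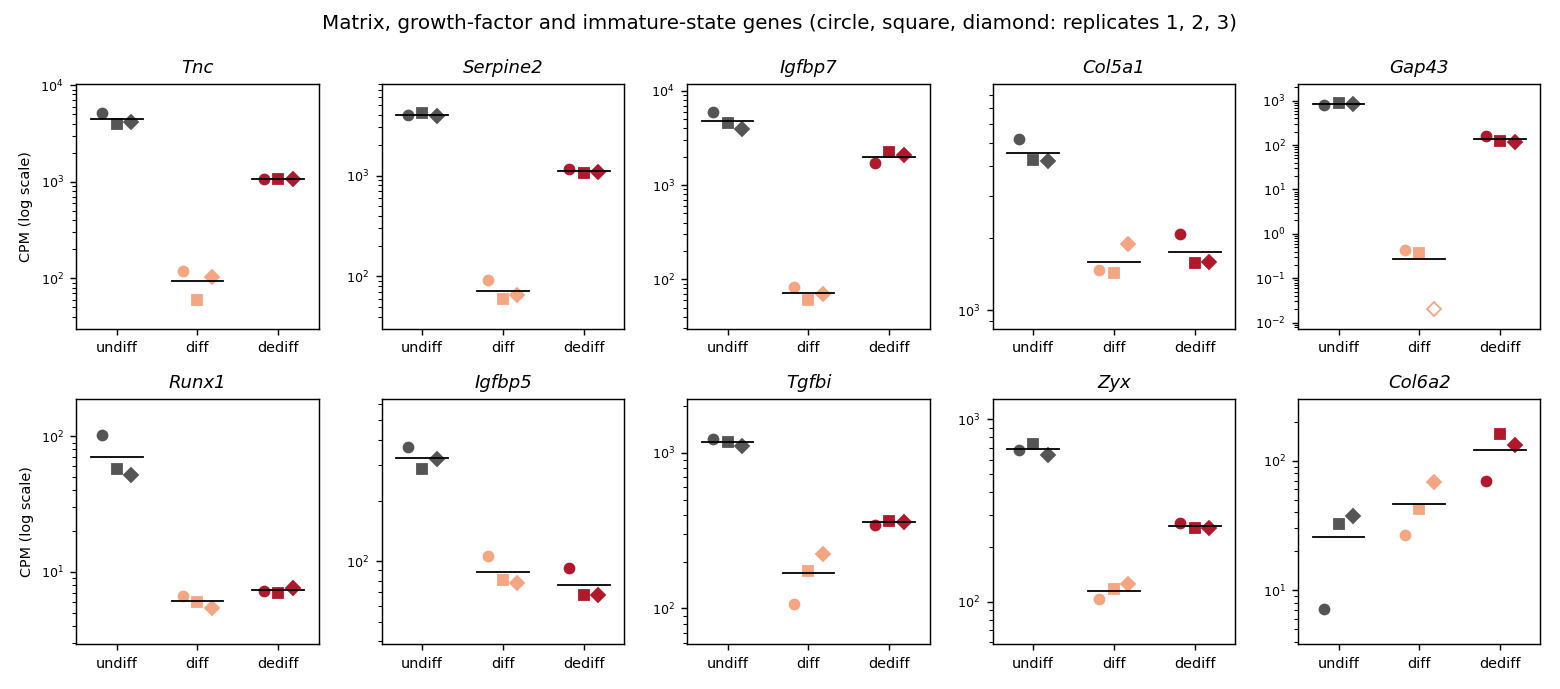
CPM (log scale) of 10 matrix, growth-factor and immature-state genes in undifferentiated, differentiated and dedifferentiated libraries, 1 symbol per library and the mean as a line, with open symbols, drawn at an arbitrary low value, for no count. Dedifferentiated libraries lie below undifferentiated ones for each gene except Col6a2, and for most of them above the differentiated ones.

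Axon guidance genes changed in both directions. Of 53 tested, 19 rose (35.8%) and 14 fell (26.4%), with a median log2 change of 0.52 (11 and 7 with replicates 1 and 2 alone). Semaphorins divided: Sema3a, a repellent of axons, measured 3.91, 5.23 and 6.27 CPM in undifferentiated and 25.5, 20.5 and 23.4 CPM in dedifferentiated libraries (log2 change 2.16, SE 0.184, edgeR adjusted p = 1.36e-05), and Sema3e 464, 404 and 399 CPM in undifferentiated and 181, 117 and 137 CPM in dedifferentiated libraries (log2 change -1.54, SE 0.143, edgeR adjusted p = 2.39e-05). Sema4g, Sema6b and Sema7a rose by 1.87, 2.00 and 1.13 on the log2 scale, and Sema3c and Sema4c fell by 0.75 and 0.80. Among receptors, Nrp2 rose by 1.39 on the log2 scale and Plxna3 fell by 0.94. Ephb1, an ephrin receptor, had 2 counts in undifferentiated cells and 15, 11 and 11.9 CPM after withdrawal, a ratio of 236 (counting interval 65 to 1960).

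Among cadherins, Cdh20, like Nfasc, was highest after withdrawal, with 1 count in undifferentiated cells, 0.368, 0.0753 and 0 CPM in differentiated and 8.31, 6.84 and 7.29 CPM in dedifferentiated libraries, a ratio of 279 (counting interval 49.7 to 11100) between the stages compared. Ctnnd1, the catenin that stabilises cadherins at the membrane, fell by 1.36 on the log2 scale and Pcdh20 by 0.91. Of adhesion molecules and syndecans, Alcam rose by 1.23 on the log2 scale, Sdc1 fell by 2.17 and Sdc2 by 0.93. Lgi1, a secreted protein that binds ADAM receptors, had no count in undifferentiated cells and was at least 10.8-fold higher.

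Receptors and second messengers that carry the culture signals changed in both directions. In the neuregulin and ErbB list 5 of 16 tested genes rose (31.2%, against 16.1% of all genes) and 2 fell (12.5%, near the 13.3% of all genes). Replicates 1 and 2 alone gave 3 and 0. The rises included Erbb2, the signalling co-receptor (log2 change 0.60), the ligand gene Hbegf (1.24) and the feedback inhibitor gene Errfi1 (1.12). In cyclic AMP generation and protein kinase A signalling 4 of 23 rose (17.4%, near the 16.1% of all genes). In the same list 6 fell (26.1%, against 13.3% of all genes), and replicates 1 and 2 alone gave 2 and 4. Gnas, the stimulatory G protein, fell by 0.50 on the log2 scale, the cyclase gene Adcy5 by 0.77 and the kinase anchor Akap12 by 1.34, and Adcy1 and the inhibitory G protein Gnai1 rose by 1.35 and 1.69. Of 23 tested targets of the cyclic AMP-responsive factor CREB, 2 rose (8.7%, against 16.1% of all genes) and 4 fell (17.4%, against 13.3%). Replicates 1 and 2 alone gave 2 and 3. The nuclear receptor Nr4a2 rose by 1.89 on the log2 scale and Cebpb by 1.42, while the phosphatase Dusp1 and the GTPase Gem fell by 1.40 and 1.72.

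Fgfr2, a receptor for fibroblast growth factors, measured 62.4, 27.4 and 22.5 CPM in undifferentiated, 0.368, 0.301 and 0.24 in differentiated and 13.1, 4.66 and 4.2 CPM in dedifferentiated libraries (log2 change -2.36, SE 0.462, edgeR adjusted p = 0.00334). Ntrk3, the neurotrophin-3 receptor, and Pdgfrb, a PDGF receptor also used as a pericyte marker, rose by 1.66 and 1.20 on the log2 scale. In the Notch pathway, which keeps Schwann cells immature, 2 of 18 tested genes rose (11.1%, against 16.1% of all genes) and 4 fell (22.2%, against 13.3%). Replicates 1 and 2 alone gave 0 and 2. The target gene Heyl fell by 1.68 on the log2 scale and the ligand gene Jag1 by 1.14. In Wnt signalling 9 of 40 rose (22.5%, against 16.1% of all genes) and 6 fell (15%, against 13.3%). Replicates 1 and 2 alone gave 4 and 3. Of the Wnt genes, the ligand gene Wnt6 rose by 2.44 on the log2 scale, and Apc, a scaffold for breakdown of β-catenin, fell by 1.00.

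Few cell division genes were called. Of 42 tested mitosis genes 1 rose (2.38%) and 0 fell (edgeR, 1 at an unadjusted p under 0.05 and 0 with DESeq2's Wald test), and the median log2 change was 0.48 (1 and 0 with replicates 1 and 2 alone). The rises numbered 4 without undifferentiated replicate 3. The gene called was Espl1, separase (log2 change 1.58, SE 0.345, edgeR adjusted p = 0.0061). Mki67, a marker of cycling cells, measured 0.34, 7.7 and 16 CPM in undifferentiated, 22.6, 57.1 and 81.9 in differentiated and 13.4, 17 and 17 CPM in dedifferentiated libraries (edgeR adjusted p = 0.363), with overlapping groups. Of 43 tested DNA replication genes 3 rose (6.98%) and 4 fell (9.3%), shares below the background. Leaving out any 1 library gave 1 to 3 in either direction, and replicates 1 and 2 alone gave 0 and 0.

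Of 30 tested regulators of G1, 6 rose (20%) and 5 fell (16.7%), near the 16.1% and 13.3% of all genes, with 4 and 1 from replicates 1 and 2 alone. Ccnd1, cyclin D1, which links growth signals to the cell cycle, measured 59.9, 137 and 177 CPM in undifferentiated, 2300, 1710 and 1940 in differentiated and 480, 438 and 437 CPM in dedifferentiated libraries (log2 change 1.85, SE 0.301, edgeR adjusted p = 0.00106). Cdkn1b, the inhibitor p27, rose beside it, with 132, 114 and 115 CPM in undifferentiated and 421, 315 and 303 CPM in dedifferentiated libraries (log2 change 1.53, SE 0.131, edgeR adjusted p = 1.44e-05). Ccnd2 and Ccnd3 rose by 0.72 and 0.87 on the log2 scale and Cdk2 fell by 0.90.

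Few ribosomal protein genes were called. Of 82 tested ribosomal protein genes 0 rose (edgeR, 0 at an unadjusted p under 0.05 and 0 with DESeq2's Wald test) and 6 fell (7.32%, below the background), with a median log2 change of -0.14, and 0 and 2 with replicates 1 and 2 alone. The falls numbered 2 without any single undifferentiated library and 3 without dedifferentiated replicate 1. Their summed share of counts was 2.33% to 3.05% over the 6 libraries. Of 39 tested genes of translation initiation and ribosome biogenesis, 5 rose (12.8%) and 7 fell (17.9%), shares near the 16.1% and 13.3% of all genes, with a median log2 change of -0.09. Replicates 1 and 2 alone gave 1 and 2. The rises numbered 3, 2 and 3 without undifferentiated replicate 2, dedifferentiated replicate 2 and dedifferentiated replicate 3, and the falls 3, 3 and 4 without undifferentiated replicate 1, undifferentiated replicate 3 and dedifferentiated replicate 1. In the response to endoplasmic reticulum stress and amino acid supply, 4 of 39 tested genes rose (10.3%) and 6 fell (15.4%), with a median log2 change of -0.15, and 3 and 1 with replicates 1 and 2 alone and 3 falls without dedifferentiated replicate 3. Slc7a5 and Slc3a2, the 2 chains of the large neutral amino acid transporter, rose by 1.68 and 0.88 on the log2 scale. The cystine transporter gene Slc7a11 was among the members that fell. Of 49 tested genes of extracellular vesicle formation, 6 rose (12.2%) and 10 fell (20.4%), with 1 and 6 from replicates 1 and 2 alone. Cd9, a tetraspanin of vesicles as well as of myelin, was among the rises, and Pld2, Anxa6 and Chmp4c fell by 0.90, 0.81 and 0.67 on the log2 scale.

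**Figure D5:**
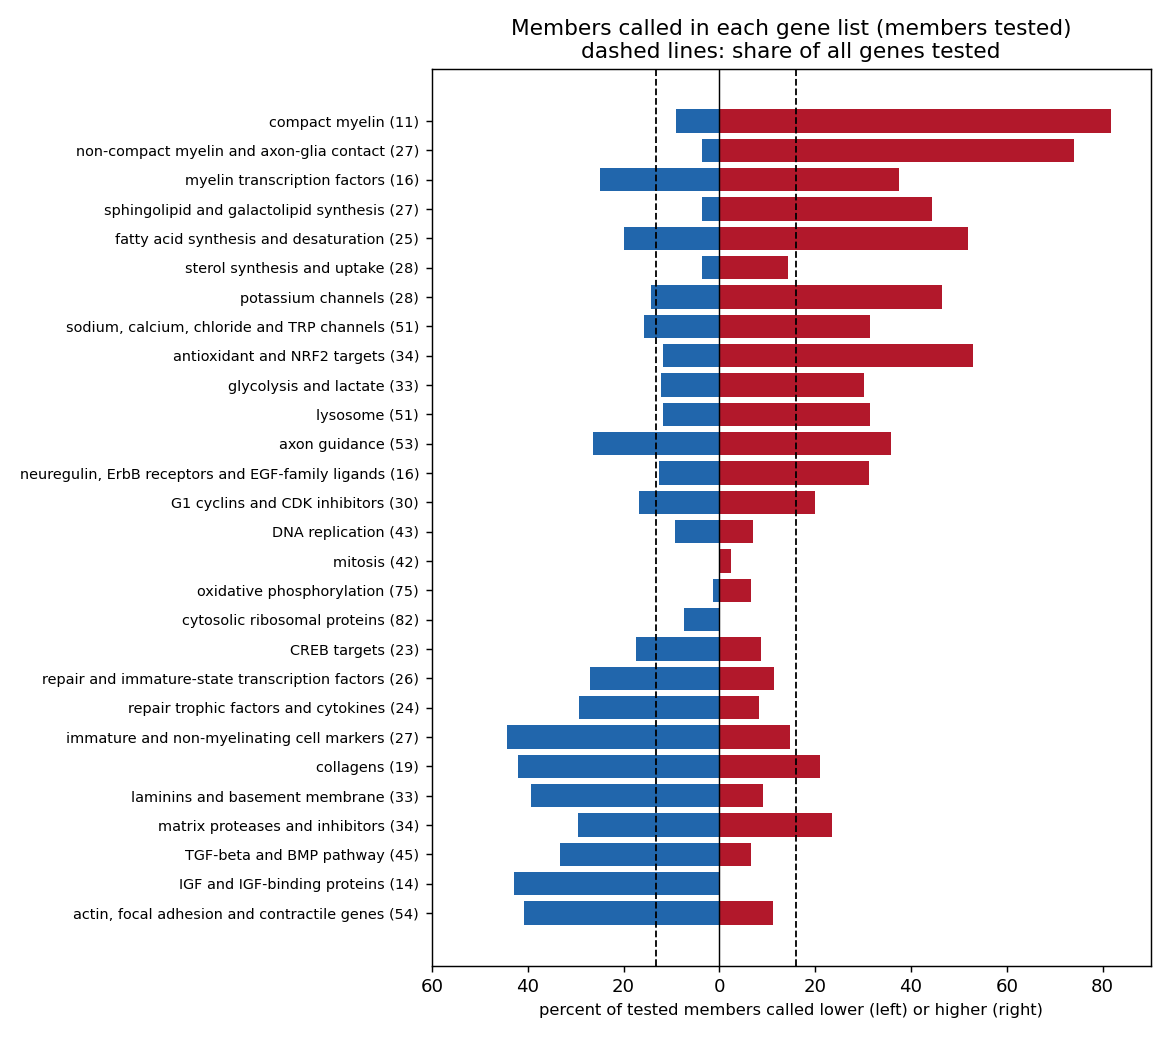
Percent of tested members called lower (left, blue) and higher (right, red) in dedifferentiated cells for 28 gene lists, with the number tested in parentheses and dashed lines at the shares of all genes tested (13.3% and 16.1%). The compact and non-compact myelin, antioxidant, fatty acid, potassium channel and sphingolipid lists extend furthest to the right. The immature marker, collagen, basement membrane, IGF and actin lists extend furthest to the left. The sterol list stays short of the right dashed line.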

How the data were processed

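Cell mRNA of 9 libraries was deposited as 1 table whose values are estimated counts, which the authors obtained with Salmon, as the name of the deposited table says. The submitters' processing notes also name STAR, HISAT2, Trim Galore and DESeq2 1.26.0. The order of the steps, the genome build and the strand setting of the counting are not given in the sources used here, so reads of overlapping or antisense genes may be shared. Estimated counts were rounded to whole numbers, since 1.15% of the values were fractional, among them values of Mbp, Nfasc, Scd2, Gsta1, Gnas, Fgfr2, Cebpb and Rn28s, whose reads Salmon divided between similar sequences. No mitochondrially encoded gene is in the table. Groups follow the sample titles; the replicate suffix of the column names was not used.

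Genes were filtered with filterByExpr (minimum count 10), scaled with TMM and fitted with edgeR 4.0.16 (quasi-likelihood test, stage as the only term, all 9 libraries, 6 residual degrees of freedom), and p-values were adjusted over all 10372 genes with the Benjamini-Hochberg method. On simulated data of this size, 84.1% of 2-fold and 95.6% of 4-fold changed genes were recovered and 3.27% of calls were false (3 draws, 200 of 10275 genes changed). In the data far more genes were called (29.4%), with a median absolute log2 change of 0.68. The simulated rates therefore need not hold for these calls. P-values measure only the spread between these libraries, whose separate origin the labels give no more than as biological replicates. Depth was 10058735 to 15283136 estimated counts, and counting intervals (95%, exact binomial) and floors cover counting error only. Fitted changes of genes without a count in 1 group are no bound, so such genes are given against the floor of 3 counts per library, and list medians were computed also with these genes at that bound.

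The genes named were the 12 higher and 12 lower with the largest log2 change among called genes with separate libraries and a mean of at least 10 CPM in the higher group, the 6 in each direction with the largest difference in CPM, and members of the gene lists with small p-values or well-known roles. Comparison, lists and tests were chosen with earlier results of these data known. Replicates 1 and 2 were sequenced in 1 project and replicate 3 in another, which holds 1 library per stage and allows no test of its own. Alternatives were the 6 libraries alone, a replicate block, a project term, replicates 1 and 2 alone, other scalings (DESeq2 size factors, library size alone, the 10 most abundant genes left out), DESeq2 1.42.0 with its Wald test, other filters and leaving out each library. Matched promoters came from RefSeq (GRCr8), by gene symbol. Some genes that the naming rule gives or that belong to the lists are not reported here. The libraries of extracellular vesicles were not analysed here.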

Additional observations from a re-analysis of the deposited data

How the results depend on the processing

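The count of 3045 called genes (1667 higher, 1378 lower) stayed within 1.5 times under the other scalings, filters, fits and tests listed with the processing, apart from 2 settings. Replicates 1 and 2 alone, with 2 libraries per stage, gave 1283 called genes, 789 higher and 494 lower, and a threshold of an absolute log2 change above 1 left 992, 672 higher and 320 lower. Leaving out single libraries gave 2246 to 2876 called genes, 1251 to 1525 higher and 948 to 1434 lower. The share of calls that were higher was 54.7%, between 48.7% and 62.6% under other scalings and tests. With the replicate block 3256 genes were called, 2939 of them also without it. Same-numbered undifferentiated and dedifferentiated libraries deviated together with r = 0.15, 0.03 and 0.13, not all over the cut-off of 0.1, and the main fit did not pair them. Same-numbered undifferentiated and differentiated libraries gave r = 0.3, 0.23 and 0.27, all over 0.1, and differentiated and dedifferentiated ones 0.21, 0.08 and 0.17. All same-numbered values were positive, while different-numbered libraries gave r from -0.23 to 0.1. The cut-off thus does not show the libraries to be unpaired. The replicate block moved members called higher from 1 to 5 in mitosis, 3 to 5 in DNA replication and in laminins, and 4 to 8 in sterol synthesis, and those called lower from 2 to 4 in the neuregulin list and 4 to 7 in CREB targets. Undifferentiated replicate 2 correlated as well with dedifferentiated replicate 3 as with its own number. Over all alternatives counts in lists ranged widely for oxidative phosphorylation (0 to 8 higher), ribosomal proteins (2 to 12 lower), sterol synthesis (3 to 9 higher), CREB targets (3 to 8 lower), potassium channels (4 to 14 higher), non-compact myelin (10 to 21 higher) and collagens (5 to 8 lower). Of 215 genes, named in the text or by the rule, 202 kept their call or lack of one and their direction in all alternatives that tested them. Genes that a filter removed, or that were among the 10 most abundant genes left out, were not tested in that setting. The values that changed sign were not called: when single libraries were left out the log2 change ranged from -0.47 to 0.12 for Sox2, positive only without undifferentiated replicate 1, and it was -0.01 for Sox10 with replicates 1 and 2 alone. Ngfr was called by DESeq2's Wald test. The causes were not tested. Genes under the floor of 0.196 to 0.297 CPM could not be compared at this depth.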
